A study of Mus musculus with 6 samples.

Results

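The genes described here are 10 well-known transcriptional targets of Wnt/beta-catenin signalling, namely Sp5, Notum, Axin2, Lef1, Tcf7, Nkd1, Dkk1, Cdx1, Wnt3 and Lgr5. They were taken as a list of names, with every probe set that the platform annotation gives to 1 of those symbols alone. That gave 16 probe sets for 9 genes, out of 45037 probe sets and 18193 genes measured. No probe set was annotated to Tcf7 alone in the table used, so its expression was not analysed here. The measurements come from E14Tg2a cells, a mouse embryonic stem cell line, kept without serum in N2B27. In every group, control included, this medium held LIF (1000 U/ml) and BMP4 (20 ng/ml), which keep the cells undifferentiated. One group received the kinase inhibitor SB431542 at 5 µM for 24 h, one received activin at 10 ng/ml for 2 h, and the control group was untreated. Each group had 2 single-colour Affymetrix arrays, and it is not stated whether these were separate cultures. No vehicle is named for the control cells, no Wnt ligand or Wnt pathway inhibitor is named for any group, and the treatments differ in length as well as in kind.

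Wnt ligands bind Frizzled receptors with Lrp co-receptors at the cell surface, which stops a cytoplasmic complex built on Axin from marking beta-catenin for destruction. Beta-catenin then enters the nucleus and joins Tcf/Lef factors at its target genes. Many of those targets feed back on the pathway. Axin2 rebuilds the destruction complex, Notum strips a lipid from Wnt ligands outside the cell, Dkk1 blocks the Lrp co-receptors and Nkd1 acts on Dishevelled. In the mouse embryo Wnt3 and Nodal are both needed to form the primitive streak, and Sp5 and Cdx1 are expressed there. SB431542 blocks the type I receptors used by activin and Nodal, and activin stimulates them. The comparisons ask which Wnt response genes shift when those receptors are blocked or stimulated, and how the others compare with Axin2.

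Promoter sequences are shown for 3 members to set a gene called lower with the inhibitor (Sp5) beside a pair that were not called (Dkk1 and Axin2). They are the RefSeq sequences of build GRCm38.p6, from 250 bases before to 50 after an annotated start. Capitals mark a match to the Tcf/Lef core, searched as CTTTGAA or CTTTGAT on both strands. Sp5 is at chr2:70474673-70474972 on the plus strand, Dkk1 at chr19:30549447-30549746 on the minus strand and Axin2 at chr11:108920099-108920398 on the plus strand.
Sp5: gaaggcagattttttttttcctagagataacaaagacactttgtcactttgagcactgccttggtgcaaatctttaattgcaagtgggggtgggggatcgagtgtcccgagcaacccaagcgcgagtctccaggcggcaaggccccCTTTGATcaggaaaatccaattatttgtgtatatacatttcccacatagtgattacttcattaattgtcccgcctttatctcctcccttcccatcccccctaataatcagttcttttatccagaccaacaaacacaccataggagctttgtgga
Dkk1: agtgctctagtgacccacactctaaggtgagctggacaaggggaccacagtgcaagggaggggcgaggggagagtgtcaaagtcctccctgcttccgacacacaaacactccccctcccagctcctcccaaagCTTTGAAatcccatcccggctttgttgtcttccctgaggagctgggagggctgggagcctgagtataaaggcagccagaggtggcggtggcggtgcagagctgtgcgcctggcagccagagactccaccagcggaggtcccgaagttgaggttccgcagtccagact
Axin2: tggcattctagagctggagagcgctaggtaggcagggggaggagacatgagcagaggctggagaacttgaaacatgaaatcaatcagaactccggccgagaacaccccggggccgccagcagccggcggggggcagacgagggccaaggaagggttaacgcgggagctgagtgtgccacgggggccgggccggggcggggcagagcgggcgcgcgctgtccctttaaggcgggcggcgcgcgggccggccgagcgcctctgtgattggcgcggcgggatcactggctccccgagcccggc
Sp5 has 1 match, 104 bases before its start, and Dkk1 has 1, 117 bases before its start. Of the 7 members whose promoters were searched, Tcf7 included, Sp5 and Dkk1 are the 2 with a match. Cdx1, Notum and Lgr5 were not searched. Lef1 and Tcf7 have more than 1 searched start, so this is 2 of 11 promoters. The other 5 genes, Axin2, Lef1, Tcf7, Nkd1 and Wnt3, have no match to the letters searched in this window. The related letters CTTTGTT were not searched, and they stand in the Wnt3, Dkk1 and Sp5 windows on either strand. Their share over all promoters was not counted. The annotated Axin2 and Nkd1 genes begin upstream of their windows, at chr11:108917828 and chr8:88521342, and those starts were not searched. A match stands in 8.7% of 32851 mouse promoters of the same length. The Smad palindrome GTCTAGAC, present in 0.2% of promoters, and the Foxh1 core AATNCACA, present in 3.6%, were found in 0 of the 7 members on either strand. These matches are letters in a short window and not measured binding sites.

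Levels are given as the deposited linear intensities of each probe set, and changes on the log2 scale. The median over all probe sets was 43 and 41 with SB431542, 38 and 49 with activin, and 46 and 37 in control. Probe sets for Bacillus transcripts, absent from mouse RNA, read from 8 to 34 and serve as a guide to background. By that guide 8 member probe sets stood over background on all 6 arrays, 5 stood at or under it on all 6, and 3 were over it on some arrays. The treatment itself was visible in Lefty2, a Nodal antagonist induced by Nodal, which read 14 and 16 with SB431542 and 1348 and 1253 with activin, against 497 and 493 in control. All 7 treatment check genes (Lefty1, Lefty2, Nodal, Pmepa1, Smad7, Eomes and Mixl1) were called lower with SB431542 by the form of the test called the intensity trend, and 3 at default settings, both described with Sp5. The stem cell factor Nanog read 4586 and 4366 with SB431542, 5574 and 5376 with activin and 5479 and 5104 in control.

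**Figure D1:**
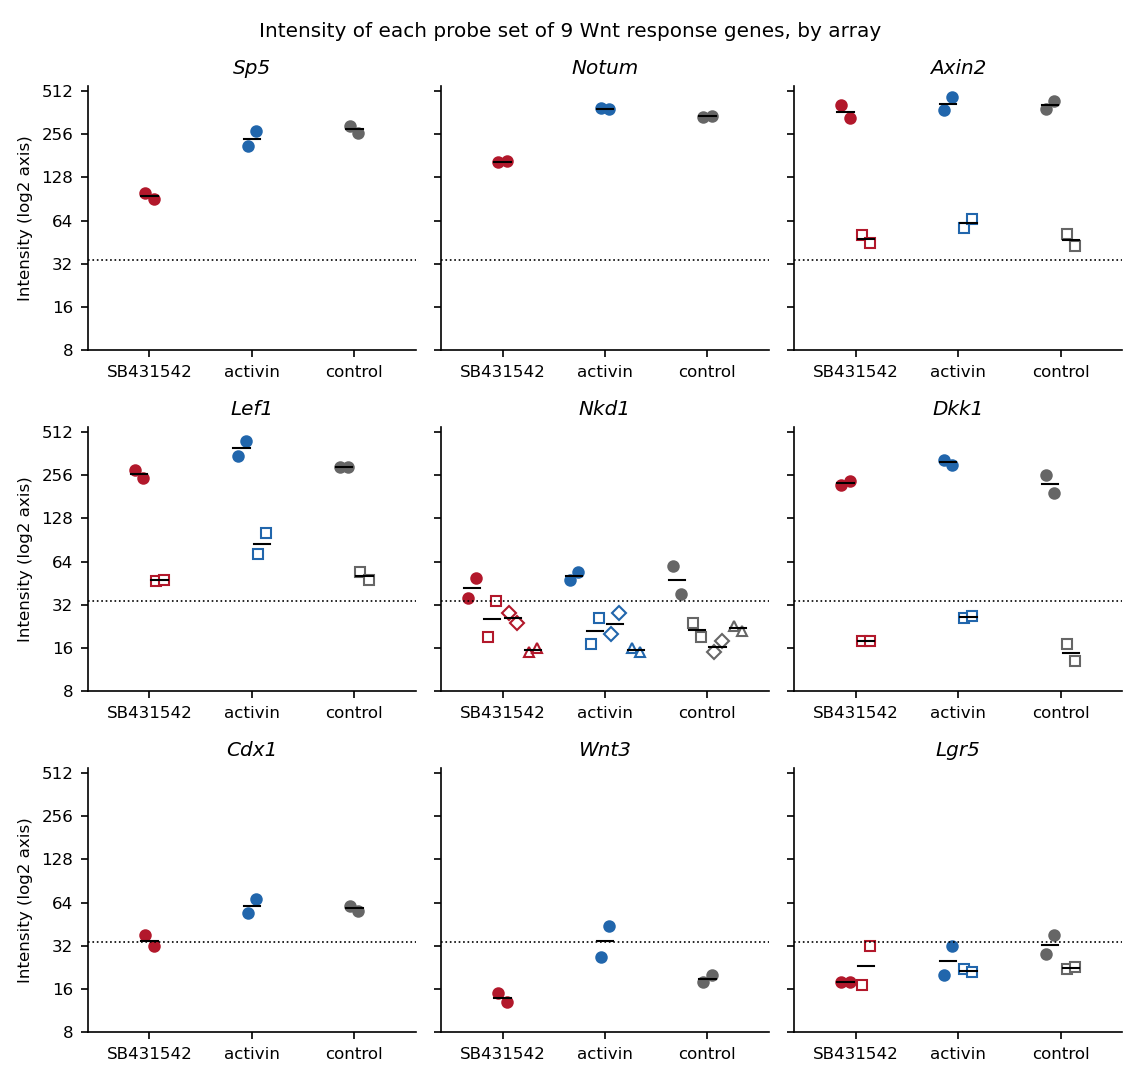
Intensity on a log2 axis of every probe set of the 9 measured genes. Each point is 1 array, bars are group means of the log2 values, filled symbols are the brightest probe set of a gene and open symbols its others, and the dotted line is the highest Bacillus value, 34. Sp5 and Notum sit lower on both SB431542 arrays than on all other arrays. The same holds for the brightest probe sets of Lef1, Cdx1, Wnt3 and Lgr5. The 3 groups overlap for the brightest Axin2 probe set.

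With SB431542, Sp5 and Notum were the members with the lowest values relative to control. Sp5 encodes a zinc finger transcription factor. Its single probe set read 100 and 90 with SB431542, against 293 and 262 in control, and the groups did not overlap. The log2 change was −1.55 (SE 0.17, 95% interval −1.97 to −1.12), a level 2.92-fold lower. Notum encodes a secreted enzyme that inactivates Wnt ligands. It read 163 and 167 with SB431542, against 338 and 343 in control, again with no overlap. Its log2 change was −1.05 (SE 0.11, 95% interval −1.33 to −0.76), a level 2.06-fold lower. Both lie clear of background in both groups, so these sizes are not bounded by it. In RNA of whole cultures, fewer cells expressing a gene and less RNA in each cell cannot be told apart.

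Both forms of limma's moderated test used here call these genes differently. An adjusted p given as limma's with no form named is from the default settings. At default settings, in which every probe set shares 1 prior variance, Sp5 and Notum each had an adjusted p of 0.127 and did not pass the threshold of 0.05. With a prior variance that follows intensity, fitted robustly and here called the intensity trend, both fell, with adjusted p = 8.72e-08 for Sp5 and 3.30e-06 for Notum. Of the 16 member probe sets 0 were called at default settings, where 0.0155% of all 45037 probe sets were called. At an unadjusted p under 0.05 the default test had 6 member probe sets of 5 genes, where 13.0% of all probe sets were. They include Nkd1 probe sets within background that went opposite ways, at 0.66 and −0.50. With the intensity trend 2 were called, both lower, where 4.98% of all probe sets were called, 1.6% lower and 3.38% higher. Leaving out any 1 of the 6 arrays, the intensity trend still called Sp5 and Notum each time and the default test called 0 members each time. Without an array of SB431542 or control, that group is 1 array, whose spread is assumed to be that of the other groups.

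Axin2, the member most often used as a general readout of beta-catenin activity, has 2 probe sets. The brighter read 408 and 332 with SB431542, against 381 and 434 in control. One SB431542 array lay between the control arrays and the other below them. The log2 change was −0.14 (SE 0.18, limma adjusted p = 0.768), with a 95% interval of −0.59 to 0.31. That interval leaves room for a fall of up to 0.59 on the log2 scale, so the data bound the change of Axin2 without showing that it is 0. The dimmer probe set read 51 and 45 with SB431542, against 52 and 43 in control, with a log2 change of 0.02 (limma adjusted p = 0.980, SE 0.16).

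**Figure D2:**
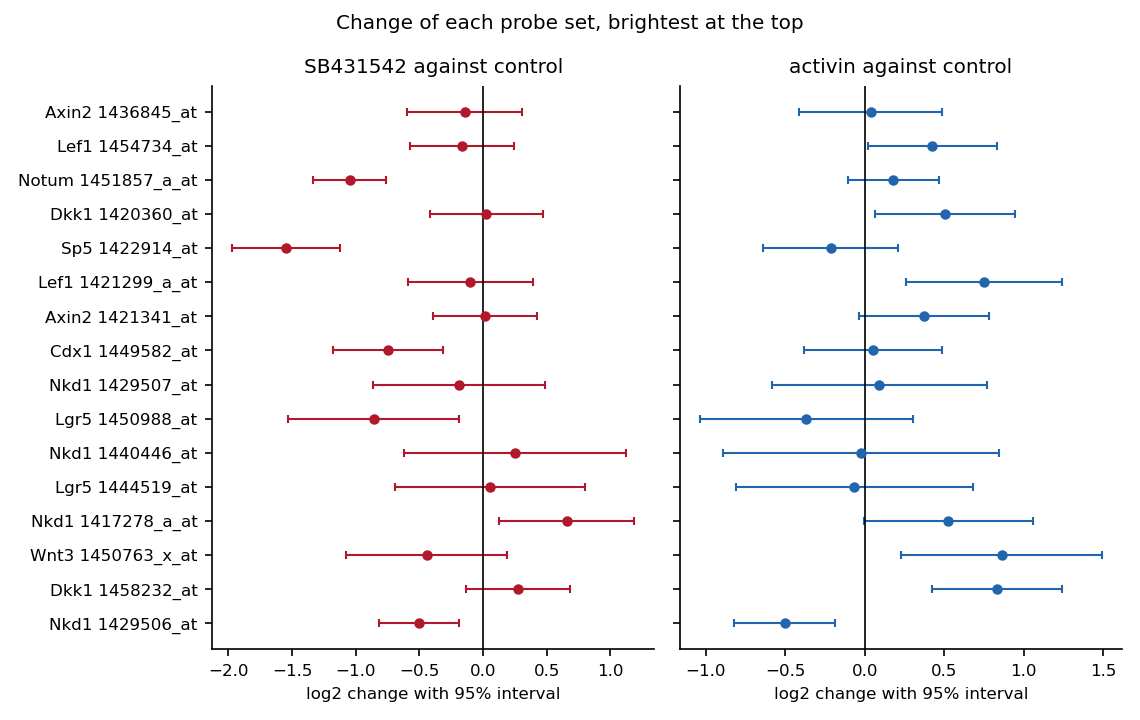
Log2 change of each of the 16 probe sets with its 95% interval from limma at default settings, with SB431542 against control on the left and activin against control on the right, ordered from the brightest probe set at the top to the dimmest. With SB431542 the Sp5 and Notum intervals end at −1.12 and −0.76 while those of Axin2, Lef1 and the brighter Dkk1 probe set span 0. Intervals of Cdx1 (−1.18 to −0.31), the brighter Lgr5 probe set (−1.53 to −0.19) and the dimmest Nkd1 probe set (−0.82 to −0.19) also lie below 0. That of another Nkd1 probe set lies above 0 (0.13 to 1.19). None of the 16 passed after adjustment.

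The difference between members was tested directly by subtracting the log2 value of the brighter Axin2 probe set from every other probe set on the same array and fitting the differences. For Sp5 this difference was −2.03 and −1.88 on the SB431542 arrays, against −0.38 and −0.73 in control. Its change relative to Axin2 was −1.40 (SE 0.30, limma adjusted p = 9.46e-04). For Notum the difference was −1.32 and −0.99 with SB431542, against −0.17 and −0.34 in control. Its change relative to Axin2 was −0.90 (SE 0.30), which did not pass at default settings (limma adjusted p = 0.115) and passed with the intensity trend (adjusted p = 0.0429). Sp5 was the 1 of 15 probe sets called at default settings, where 1.37% of all probe sets were called and 0.218% were called lower. With the intensity trend 2 of 15 were called, both lower, where 1.17% of all were called and 0.162% were called lower.

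These p-values are too small, because the array error of Axin2 enters every difference, and the fit then took the spread as known, with infinite prior degrees of freedom. With each probe set's own spread on 3 degrees of freedom, Sp5 did not pass (adjusted p = 0.657) and 0 of all probe sets did. The Sp5 call was also lost without SB431542 replicate 1 (limma adjusted p = 0.0701), at a change of −1.33.

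**Figure D3:**
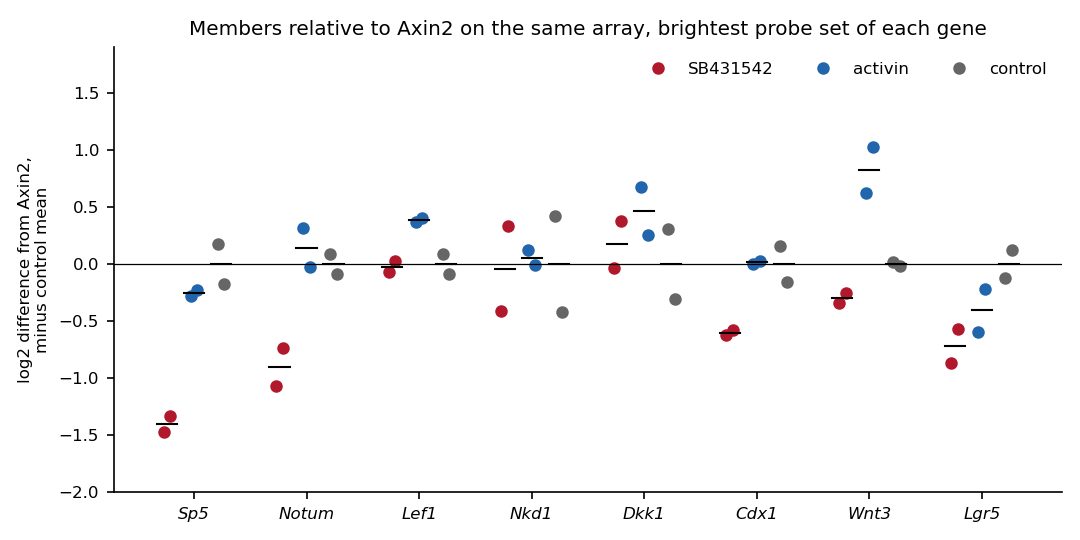
Log2 difference between the brightest probe set of each gene and the brighter Axin2 probe set on the same array, with the mean of the 2 control arrays set to 0. Each point is 1 array and bars are group means. Both SB431542 points of Sp5, Notum, Cdx1 and Wnt3 lie below the activin and control points. The SB431542 points of Lef1, Nkd1 and Dkk1 lie on either side of 0.

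The other transcription factors, Lef1 and Cdx1, did not pass by either test. Lef1 is a DNA-binding partner of beta-catenin. On its brighter probe set it read 280 and 244 with SB431542, against 293 and 294 in control, with no overlap. That is a log2 change of −0.17 (SE 0.16, 95% interval −0.58 to 0.24, limma adjusted p = 0.700), and its dimmer probe set was at −0.10. Cdx1, a homeobox factor of the posterior embryo, read 38 and 32 with SB431542, against 61 and 56 in control. The groups did not overlap, and the change was −0.75 (SE 0.17, adjusted p = 0.243 by the default limma test and 0.214 with the intensity trend). The lower Cdx1 group lies at the top of the background range, which limits the size of its change.

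The other feedback inhibitors, Dkk1 and Nkd1, did not pass by either test. Dkk1 read 218 and 235 on its brighter probe set with SB431542, against 257 and 192 in control, so that both SB431542 arrays lay between the control arrays. Its log2 change was 0.03 (SE 0.18, 95% interval −0.41 to 0.47, limma adjusted p = 0.967). The 4 Nkd1 probe sets went different ways, with log2 changes of −0.19, 0.25, 0.66 and −0.50 from brightest to dimmest. Only the brightest of them reads over background on all 6 arrays, at 36 and 49 with SB431542 and 60 and 38 in control, and the other 3 stay at or under 34 throughout. The 4 give no settled direction for the gene.

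The ligand and the receptor of the list lie at the edge of detection. Wnt3, the ligand, has 1 probe set, which read 15 and 13 with SB431542, against 18 and 20 in control (log2 change −0.44, SE 0.25, limma adjusted p = 0.514). All 4 of these values are within the range of the Bacillus probe sets. Lgr5, a receptor for R-spondins that marks Wnt-responsive stem cells in several tissues, read 18 and 18 with SB431542, against 28 and 38 in control, on its brighter probe set. That change of −0.86 (SE 0.27, limma adjusted p = 0.314) was not shared by its other probe set, at 0.05.

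Taking the brightest probe set of each gene, the 9 measured genes had a median log2 change of −0.44 with SB431542, with 8 below control and 1 above, while all 18193 genes had a median of −0.0021. Of the 16 probe sets, 7 were lower on both SB431542 arrays than on both control arrays, where 22.1% of all probe sets were, and 2 were higher, where 20.6% were. The median is −0.19 without the dimmest 40% of probe sets.

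After activin for 2 h no member passed, and on the brightest probe sets the values highest relative to control were those of Lef1, Dkk1 and Wnt3. Sp5 read 211 and 270 with activin, against 293 and 262 in control (log2 change −0.22, SE 0.17, limma adjusted p = 0.883). Notum read 391 and 381 with activin, against 338 and 343 in control. The groups did not overlap, but the log2 change was 0.18 (SE 0.11, limma adjusted p = 0.858). The brighter Axin2 probe set read 376 and 464 with activin, against 381 and 434 in control, a log2 change of 0.04 (SE 0.18), and the dimmer read 57 and 66 with activin, against 52 and 43 in control. Cdx1 was at 0.05, and Lgr5 at −0.37 on its brighter and −0.07 on its dimmer probe set. Nkd1 was at 0.09, −0.02, 0.53 and −0.50 from brightest to dimmest, all but the brightest within background.

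Both probe sets of Lef1 and both of Dkk1 read higher on each activin array than on either control array. Lef1 read 351 and 443 on its brighter probe set with activin, against 293 and 294 in control, a log2 change of 0.43 (SE 0.16, adjusted p = 0.798 by the default limma test and 0.364 with the intensity trend). Its dimmer probe set read 72 and 102 with activin, against 54 and 48 in control, a change of 0.75. Dkk1 read 328 and 303 with activin, against 257 and 192 in control, a log2 change of 0.51 (SE 0.18, adjusted p = 0.793 by the default limma test and 0.286 with the intensity trend). Its dimmer probe set, at 26 and 27 with activin, against 17 and 13 in control, lies within background.

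Wnt3 read 27 and 44 with activin, against 18 and 20 in control, a log2 change of 0.86 (limma adjusted p = 0.793, SE 0.25). Both control values and 1 activin value are within background, and the activin array with the higher value is also the one with the higher median over all probe sets, 49, the other being 38. The same array has the higher Lef1 values, and the part of this difference was not tested. When all columns were shifted to 1 median or quantile normalization was repeated, Lef1 stayed between 0.36 and 0.41, Dkk1 between 0.44 and 0.50 and Wnt3 at 0.80.

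At default settings 0 of 16 probe sets were called, where 0% of all probe sets were, and 6 had an unadjusted p under 0.05, where 6.21% of all did. Among the 6 was the dimmest Nkd1 probe set, which was lower with activin. With the intensity trend 0 were called, where 0.215% of all were, and 5 had an unadjusted p under 0.05, where 7.14% of all did. Leaving out control replicate 1, the intensity trend called the brighter Dkk1 probe set (adjusted p = 0.0451), with 1 control array left and its spread taken from the other groups. By position, 8 probe sets of 6 genes were higher on both activin arrays than on both control arrays, where 14.7% of all probe sets were, and 1 was lower, where 14.5% were. The 9 genes had a median log2 change of 0.09, against −0.0063 for all genes.

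Set directly against each other, the 2 treatments differed in 4 members by the intensity trend, Sp5, Notum, Lef1 and Wnt3, all higher with activin. Of these, Wnt3 reads over background on 1 array alone. This comparison uses no control array, and the treatments differ in length. Notum was higher with activin than with SB431542 by 1.23 in log2 units (SE 0.11, limma adjusted p = 0.0986) and Sp5 by 1.33 (SE 0.17, limma adjusted p = 0.163). Both were called by the intensity trend, with adjusted p = 1.98e-07 for Notum and 2.28e-06 for Sp5. So were the brighter Lef1 probe set, higher with activin by 0.59 (adjusted p = 0.0156), and Wnt3, higher by 1.30 (adjusted p = 0.0155).

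The Lef1 values were 351 and 443 with activin, against 280 and 244 with SB431542, and those of Wnt3 were 27 and 44 with activin, against 15 and 13 with SB431542. All of these Wnt3 values but the 44 are within the Bacillus range, so the size of its difference is not settled. At least 1 of these 2 calls was lost when an array of either treatment other than activin replicate 1 was left out. The intensity trend then called 2 members without activin replicate 2, 3 without SB431542 replicate 1 and 2 without SB431542 replicate 2. Axin2 was higher with activin by 0.18 (SE 0.18, limma adjusted p = 0.819) on the brighter and 0.36 on the dimmer probe set. Dkk1 was higher by 0.48 (SE 0.18, adjusted p = 0.524 by the default limma test and 0.123 with the intensity trend).

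At default settings 0 of 16 probe sets were called, where 0.02% of all were, and 8 had an unadjusted p under 0.05, where 9.04% of all did. With the intensity trend 4 were called, all higher with activin, where 2.27% of all probe sets were called and 0.802% were called higher. All 9 genes read higher with activin than with SB431542 on their brightest probe set, with a median of 0.59, against 0.0017 for all genes. By position 10 of 16 probe sets were higher on both activin arrays, where 18.7% of all were, and 0 were lower, where 18.2% were.

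The wider Wnt pathway was read through lists of other target genes, ligands, receptors, secreted modulators and internal components, which share Fzd7, Dkk4 and Wif1. Among 17 other measured target genes, 1 was called with SB431542 at default settings. This was Ascl2, a basic helix-loop-helix factor that responds to Wnt in the intestine and is needed for the trophoblast. It read 335 and 335 with SB431542, against 83 and 81 in control, with no overlap. It rose by 2.03 in log2 units (limma adjusted p = 0.0457, SE 0.12), and its other probe sets were at 2.35 and 2.94. By the intensity trend 2 fell. Myc, a growth regulator, was at −0.58, reading 403 and 413 with SB431542 and 639 and 584 in control (adjusted p = 0.00117). Ccnd1, a cell cycle cyclin, was at −0.41 on its brightest probe set (adjusted p = 0.0206), with its other probe sets at −0.20 and 0.02. In this comparison no gene of these lists other than Ascl2 passed at default settings on its brightest probe set. Over all 18193 genes, each by its brightest probe set, the default test called 1 higher and 4 lower with SB431542. The intensity trend called 4.25% of them higher and 2.23% lower.

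Of 18 ligands, 0 were called at default settings. The intensity trend called 1 lower and 2 higher with SB431542, where 2.23% of all genes were lower and 4.25% higher. Wnt5b read 25 and 16 with SB431542, against 63 and 75 in control (log2 change −1.78, adjusted p = 0.00113 with the intensity trend), and ended within background. Wnt7b read 367 and 305 with SB431542, against 216 and 172 in control (log2 change 0.80, adjusted p = 0.00126 with the intensity trend). Wnt6 was at 0.87 (adjusted p = 0.0322 with the intensity trend). Wnt8a, a ligand of the primitive streak, read 29 and 30 with SB431542, against 64 and 44 in control, and did not pass (log2 change −0.85, adjusted p = 0.151 with the intensity trend).

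Rspo3, an R-spondin that strengthens Wnt signalling through Lgr receptors, was 1 of 19 secreted modulators and fell by the intensity trend. It read 31 and 21 with SB431542, against 88 and 96 in control (log2 change −1.85, SE 0.31, adjusted p = 0.182 by the default limma test and 1.39e-04 with the intensity trend), and its other probe set, within background, was at −0.25. Both SB431542 values of the brighter probe set are within the background range too, so the size of its change is not settled. Kremen1, a receptor for Dkk proteins, was at 0.80 (adjusted p = 0.00741 with the intensity trend) on its brightest probe set and at −0.38 and 0.16 on the others. Among 17 receptors, Ryk was at 0.44 (adjusted p = 0.0153 with the intensity trend), and its other probe sets were at 0.21 and −0.23.

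Among the internal components, Ctnnb1, which encodes beta-catenin, read 10061 and 10437 with SB431542, against 10440 and 10393 in control, a log2 change of −0.02 (limma adjusted p = 0.950, SE 0.12). Tcf7l1, the main Tcf repressor of embryonic stem cells, read 1252 and 1226 with SB431542, against 1244 and 1226 in control. Both were named after their values were seen. Of 26 components 0 were called at default settings, and on brightest probe sets the intensity trend called Gsk3b at 0.42 and Tle4 at 0.34. It also called dimmer probe sets of the kinase genes Csnk1d, at 0.55 (adjusted p = 9.70e-04), and Csnk1a1, at 0.41 (adjusted p = 0.00166). The brightest probe sets of Csnk1d and Csnk1a1 were at 0.19 and 0.18 and did not pass. The 5 other Gsk3b probe sets lay between −0.36 and 0.28, and the 2 other Tle4 probe sets at −0.17 and −0.68. The medians of the 5 lists were −0.11 for other targets, −0.06 for ligands, 0.01 for receptors, −0.14 for secreted modulators and 0.12 for components.

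**Figure D4:**
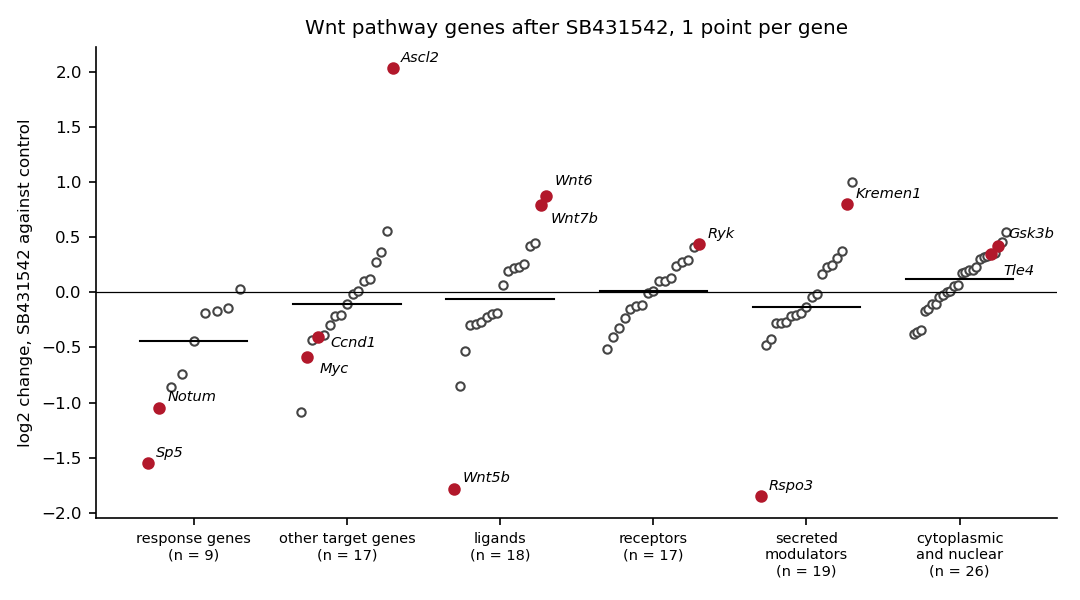
Log2 change with SB431542 against control for Wnt pathway genes, with 1 point per gene (its brightest probe set), bars at list medians, and filled points for adjusted p under 0.05 with the intensity trend. The response genes have a median of −0.44, which is the value of Wnt3, within background in both groups, and is −0.19 without the dimmest 40% of probe sets. Genes that passed are found both above and below 0 in the lists of other targets, ligands and secreted modulators.

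After activin the lists held 1 called gene by the intensity trend, where 0.137% of all genes were called higher and 0.011% lower. This was Fzd7, a Frizzled receptor that is also among the other targets. It read 1138 and 1209 with activin, against 938 and 755 in control (log2 change 0.48, SE 0.15, adjusted p = 0.793 by the default limma test and 0.0379 with the intensity trend), while its dimmer probe set was at 0.09. Between the treatments the intensity trend called 5 list genes higher with activin than with SB431542, Myc at 0.89, Wnt5b at 1.45, Wnt8a at 1.27, Rspo3 at 1.66 and the Frizzled receptor Fzd10 at 0.66. It called 6 lower, Ascl2 at −2.28, Wnt6 at −0.95, Wnt7b at −0.83, Ryk at −0.58, Kremen1 at −0.96 and the kinase gene Csnk1d at −0.33. Over all genes, each by its brightest probe set, the trend called 1.26% higher with activin and 2.12% lower. The SB431542 values of Wnt5b, Wnt8a and Rspo3 are within background, so the sizes of their differences are not settled. Ascl2 alone passed at default settings (limma adjusted p = 0.0252).

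The genes whose pattern was most like that of Sp5 were found by Pearson correlation of log2 values over the 6 arrays, among 268 probe sets of at least moderate intensity that spanned a log2 difference of 1 or more between group means. They were Fst, Hoxd9, Nt5e, Nkx1-2 and Igfbp3, with r from 0.985 to 0.993. Fst, which encodes the activin antagonist follistatin, read 48 and 41 with SB431542 and 124 and 149 with activin, against 147 and 151 in control. Nkx1-2, a homeobox gene, read 48 and 32 with SB431542 and 100 and 136 with activin, against 189 and 141 in control. The 6 points of each correlation share their arrays and fall into 3 groups, and all 5 genes read lower on both SB431542 arrays than on the other 4 arrays.

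Markers of other cell types moved with the SB431542 group. The summed intensity of 6 primitive streak and mesoderm markers was 270 to 292 with SB431542, against 677 to 741 in control. Mixl1 and Eomes, the 2 of the 6 called lower by the intensity trend, are also treatment check genes. Mixl1 read 37 and 51 with SB431542, against 281 and 257 in control, and Eomes read 50 and 44 with SB431542, against 229 and 239 in control. Without these genes the other 4 summed to 175 to 205 with SB431542, against 181 to 231 in control, and Gsc was within background on all arrays. Trophoblast markers, 7 genes including Gata3 and Hand1, summed to 16794 to 16925 with SB431542, against 11129 to 12898 in control. Most of that sum is the keratin genes Krt8 and Krt18, at 0.43 and 0.46. Of the 7 genes 5 rose by the intensity trend, where 4.25% of all genes did. Cdx2 and Elf5, at −0.11 and −0.43, were not called, and Elf5 was within background. Cdx2 stands in this list and among the other Wnt targets.

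The 8 stem cell markers summed to 43837 to 44864 with SB431542, against 49306 to 50417 in control. By the intensity trend 4 were lower and 1 higher, where 2.23% of all genes were lower and 4.25% higher. The lower ones were Pou5f1, Tdgf1, Dppa5a and Nanog, which was at −0.24 (adjusted p = 0.463 by default limma, 0.0408 by the trend). Dppa5a, the brightest, read 14088 and 14946 with SB431542, against 17117 and 18040 in control. Klf4 was higher, at 0.50 (adjusted p = 1.58e-04 by the trend), with its other probe set at 0.02. Sox2, Zfp42 and Esrrb, at −0.05, 0.01 and 0.11, were not called. Dimmer Esrrb probe sets were at −0.42 and 0.66, the latter called higher by the trend. The 6 fibroblast markers summed to 2420 to 2615 with SB431542, against 3709 to 3798 in control, with 2 lower and Col3a1 within background. Most of that sum is the brightest Vim probe set (−0.58), and the other Vim probe sets were at 0.38, called higher by the intensity trend (adjusted p = 0.00290), and at 0.02. Without Vim the other 5 summed to 192 to 215 with SB431542, against 293 to 306 in control. Sums for extraembryonic endoderm were 296 to 302 with SB431542, against 314 to 354 in control, with 0 of 6 called by either test and Afp within background. Sums for neuroectoderm were 660 to 693 with SB431542, against 579 to 619 in control, with 1 of 5 higher (Pax6, whose 4 dimmer probe sets did not pass) and Zic1 within background. The part of these shifts in the values of Sp5, Notum or the other members was not tested.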

How the data were processed

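RNA of 6 E14Tg2a samples, 2 per group, was hybridised to single-colour Affymetrix mouse arrays. The authors deposited linear intensities per probe set, as whole numbers from 6 to 26405. RMA, which corrects background, normalizes by quantiles and summarises probes, is named without a version per the submitters' processing notes. The array medians nevertheless range from 37 to 49, so the deposited columns do not share 1 distribution. Groups and array numbers come from the titles. The compound is spelled SB432542 in 1 title and in a condition label, and SB431542 elsewhere.

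Intensities were converted to log2 with no further scaling. After 64 control probe sets were left out, 45037 were tested, of which 34945 have 1 symbol in GEO's platform annotation, 932 several and 9160 none. Entrez identifiers of 34741 were found in the RefSeq table, with 0 symbols changed. All 6 arrays entered 1 fit of the 3 group means (limma 3.58.1 in R 4.3.3). Its eBayes step was run at default settings and, as the intensity trend, with trend and robust estimation. The fit left 3 residual degrees of freedom, to which the prior added 2.51 by default and 34.3 with the trend. Benjamini-Hochberg adjustment ran over all probe sets, at a threshold of 0.05. The p-values cover only the spread between these samples, possibly technical, and the number of arrays limits precision. An exact two-sided permutation test of 2 arrays against 2 cannot go below 0.333 and was not used.

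The members and lists were chosen with earlier results of these data known. Named were all member probe sets, members of the other lists past the threshold by either form of the test (at most 6 a list and comparison), treatment check genes, and the 5 genes most like Sp5, among probe sets with a mean log2 of at least 6 whose group means span at least 1. Genes are represented by their brightest probe set, and others are given where they differ. Alternatives were repeated quantile normalization, columns shifted to 1 median, the dimmest 40% left out, 16 added to intensities, only the groups compared, a replicate block and arrays left out. Promoters were searched in Python 3.11.15.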

Additional observations from a re-analysis of the deposited data

How the results depend on the processing

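The default test called 0 members in the 3 comparisons between groups, so no call could be lost or turn. Of 47 member changes other than 0, 34 kept their sign in every alternative and 13 turned sign in at least 1. The 13 are of Axin2, Nkd1, Dkk1, Lgr5 and Cdx1 probe sets, and the dimmer Axin2 probe set with SB431542 kept its sign in 14 of 20. Sp5 lay between −1.63 and −1.40 and Notum between −1.11 and −0.98 with SB431542 against control in all 20 alternatives run. The count of called members with SB431542 against control was 0 by default, 2 with the intensity trend (Sp5 and Notum), 1 with repeated quantile normalization (Sp5), 2 with columns shifted to 1 median and 1 with 16 added to intensities (Notum). It was 0 without each array in turn at default settings and 2 without each array in turn with the intensity trend. For activin against control, the count was 0 by default and 0 to 1 with an array left out. For activin against SB431542, it was 0 by default, 4 with the intensity trend, 1 with repeated quantile normalization, 3 with columns shifted, 1 with the dimmest 40% left out, 1 with 16 added, and 0 to 5 with an array left out. Members differing from Axin2 numbered 1 by default, 2 with the intensity trend, 2 with 16 added, 0 to 1 with an array left out (0 without SB431542 replicate 1), 2 with the dimmer Axin2 probe set subtracted and 0 with each probe set's own variance. The last 2 were chosen after seeing the data. A count of called members also depends on the number of calls over all probe sets, which is not given here for each alternative. A shift in these counts therefore cannot be read as a result about the members alone. The causes of these shifts were not tested.

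Differences between arrays 1 and 2 correlated at −0.14 between activin and control, 0.02 between SB431542 and control and −0.09 between activin and SB431542, across 45037 probe sets. With the replicate block the counts of called members were 0, 0 and 0 in the 3 comparisons and 1 relative to Axin2, as without it. The block lowered the calls over all probe sets to 0 with SB431542 against control and to 1 between the treatments. A crossed block, with the activin numbers exchanged, also called 0, 0, 0 and 1 members and was chosen after seeing the data. Dim probe sets of Wnt3, Nkd1 and Lgr5 lie at background, which limits what can be said of these genes.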
